A study of Mus musculus with 32 samples.

Results

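Ebp, Sc5d and Dhcr7 encode the enzymes of the last steps that lead to cholesterol by way of 7-dehydrocholesterol. They were taken by their symbols from the 55291 gene symbols that each of the 4 deposited count tables lists, and all 3 were found in every table. The study sequenced messenger RNA from the whole brains of C57BL/6J mice, either wild type (WT, Dhcr7+/+) or knockout (KO, Dhcr7-/-). The stages, counted in days of embryonic life, were E12.5, E14.5 and then E16.5, with newborns (PND0) as the last. The 8 groups of genotype and stage had 4 libraries each, 32 in all, and the labels name no treatment in any group. The labels name neither the part of Dhcr7 that was disrupted nor the litter or sex of a brain. Nothing in them says that the libraries of a group came from separate litters, so a p-value measures the spread between these libraries.

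Cholesterol is made from acetyl-CoA by way of mevalonate, squalene and lanosterol, and the last steps rearrange the double bonds of the sterol. EBP, the emopamil-binding protein, is an isomerase that moves a double bond within the sterol's ring system. SC5D, sterol C5-desaturase, then adds another double bond and so makes 7-dehydrocholesterol from lathosterol, and DHCR7 removes one of them to give cholesterol. The developing brain makes its own cholesterol once the blood-brain barrier has formed. Loss of DHCR7 in people causes Smith-Lemli-Opitz syndrome, in which 7-dehydrocholesterol builds up, while loss of SC5D causes lathosterolosis and loss of EBP causes an X-linked chondrodysplasia. Sterol-sensing SREBP transcription factors switch on most genes of the pathway together, with help from factors that bind GC boxes and CCAAT boxes.

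In the average over the stages, 16 of 18 further genes of the pathway were past the threshold and higher in KO. Of all genes tested there, 0.558% passed in either direction. At single stages 0, 13, 3 and 4 of the 18 were past it and higher, in order from E12.5 to PND0. The promoter sequences of the 3 genes are shown first, each as bases before an annotated RefSeq start on GRCm38.p6. All 3 genes had at least 1 promoter window in the RefSeq table, and Dhcr7 had 3. Each window ran from 250 bases before to 50 bases after a start, and only bases before the RefSeq start and before any exon of the gene in GENCODE M21 are printed, on the strand of the gene. Capitals mark the GC box GGGCGG or its reverse complement CCGCCC, and the CCAAT box or its reverse complement ATTGG. Ebp (ENSMUSG00000031168.14) spans chrX:8185329-8193512 on the minus strand, and its promoter is chrX:8193513-8193762. Sc5d (ENSMUSG00000032018.14) spans chr9:42251595-42264256 on the minus strand, with its promoter at chr9:42264301-42264550. Dhcr7 (ENSMUSG00000058454.15) spans chr7:143823145-143848410 on the plus strand. Its first window is shown at chr7:143822917-143823144, up to the first base of the gene in GENCODE M21. Its other windows begin inside annotated exons and are not printed.
Ebp: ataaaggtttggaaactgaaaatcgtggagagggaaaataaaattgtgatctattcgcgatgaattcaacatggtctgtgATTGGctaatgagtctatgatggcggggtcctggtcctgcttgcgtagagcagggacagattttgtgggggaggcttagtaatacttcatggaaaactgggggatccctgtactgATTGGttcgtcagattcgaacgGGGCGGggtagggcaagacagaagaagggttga
Sc5d: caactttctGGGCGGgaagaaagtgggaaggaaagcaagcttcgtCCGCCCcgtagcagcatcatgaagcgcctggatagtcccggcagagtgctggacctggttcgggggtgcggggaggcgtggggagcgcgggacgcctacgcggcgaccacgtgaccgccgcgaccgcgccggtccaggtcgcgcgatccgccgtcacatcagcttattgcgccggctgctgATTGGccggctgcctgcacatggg
Dhcr7, first start: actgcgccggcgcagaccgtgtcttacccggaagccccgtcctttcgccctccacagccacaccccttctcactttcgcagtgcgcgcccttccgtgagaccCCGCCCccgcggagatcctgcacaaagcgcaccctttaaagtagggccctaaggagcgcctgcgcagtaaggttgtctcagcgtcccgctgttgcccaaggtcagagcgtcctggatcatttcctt

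The sterol regulatory element core TCACNCCAC, searched on both strands, was in none of the 3 genes' windows. It was in 408 of the 32851 RefSeq windows of this length (1.24%). Counted by gene, it was in 1.44% of the 27025 genes with a window, and in 1 of the 13 other cholesterol synthesis genes that had one, Hmgcs1. GC boxes were in a window of 38.2% and CCAAT boxes of 41.1% of all genes, and each was in 12 of those 13. The Ebp window held 1 GC box and 2 CCAAT boxes, all before the start. The Sc5d window held 4 GC boxes and 1 CCAAT box. Of these GC boxes 2 are in the printed bases, 1 spans the start, so that only its first bases end the printed run in lower case, and 1 lies after the start. For Dhcr7 the first window held 1 GC box and no CCAAT box, the middle one neither, and the last 3 GC boxes and 2 CCAAT boxes. The Sp1-type GC box and the CCAAT box do not overlap in letters, and a match describes the sequence only. Since the core was in only 1 of those 13 pathway genes, its absence does not show that a gene lacks a sterol regulatory element.

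The libraries held 13.87 to 28.32 M counts each. The 5 neuronal markers, Tubb3, Map2, Stmn2, Snap25 and Dcx, summed to between 2406 and 5991 CPM (counts scaled to a common library size by TMM over the 32 libraries) in every library, and the 3 liver markers to at most 33.0 CPM. At E12.5 skeletal muscle markers (3 of 3 in the tables) summed to 9.34 to 87.5 CPM in WT and 2.35 to 13.4 CPM in KO, mesenchyme markers (4 of 4) to 976 to 2101 and 461 to 1863 CPM, and blood markers (5 of 5) to 1639 to 8507 and 1341 to 4041 CPM. At PND0 the blood markers summed to 182 to 243.5 CPM in WT and 212.6 to 2133 CPM in KO, with Hbb-y at 0 in KO. Liver markers (3 of 3) at E16.5 summed to 0.387 to 10.4 CPM in WT and 0.931 to 33.0 CPM in KO. No defining marker of the muscle, mesenchyme or blood list was at 0 in a group of E12.5. The part of these cells in the results at E12.5, E16.5 and PND0 was not tested. The share of counts on a ribosomal RNA gene, CT010467.1, was highest in KO replicate 1 of E12.5 (5.64%) and next in WT replicate 1 of E16.5 (3.75%). In whole brain, fewer cells that use a gene and less of its RNA per cell cannot be told apart.

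Dhcr7, the targeted gene, was lower in all 16 KO libraries than in any WT library of the same stage. The KO libraries still held 178 to 442 counts of it each. The count tables are per gene, so they do not show which exons these counts fell on. As a share of the WT mean, the KO level was 32.5% ± 6.88, 18.8% ± 1.56, 27.4% ± 1.44 and 16.2% ± 2.25 in stage order from E12.5 to PND0 (SD over 4 KO libraries). The fall passed the threshold at each stage in edgeR's quasi-likelihood test (Benjamini-Hochberg adjusted p under 0.05). Of all genes tested, 0.0177%, 0.527%, 0.0462% and 1.44% passed in stage order, and 2.53%, 4.77%, 6.39% and 11.9% had groups that did not overlap, in either direction. The adjusted p of Dhcr7 at E12.5 was 0.00824. It lost its call when KO replicate 2 (0.0625) or KO replicate 4 (0.0558) was left out.

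The size of the Dhcr7 fall was also compared between stages. On the log2 scale the differences were -1.64, -2.40, -1.88 and -2.63 (SE 0.146, 0.0624, 0.0669 and 0.162). The test of the KO effect by stage gave an adjusted p of 0.0349, which 0.0256% of all genes passed. Leaving out 1 library at a time moved this p between 0.000147 and 0.149, and 17 of the 32 such fits did not pass. By library, Dhcr7 measured 15.6, 23.0, 26.7 and 22.3 CPM in the KO replicates of E12.5, against 11.97 to 14.6 CPM at E14.5. The lowest KO library of E12.5, replicate 1, was thus still above every KO library of E14.5, and it is the library with 5.64% ribosomal RNA counts. The KO libraries of E16.5 held 15.9 to 17.9 CPM and those of PND0 11.5 to 15.7 CPM.

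**Figure D1:**
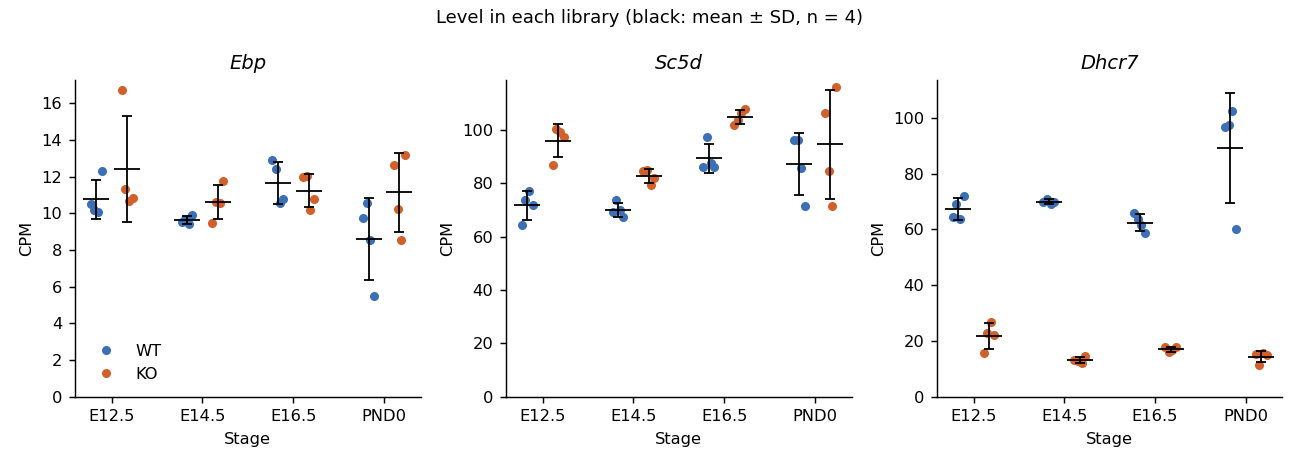
Level of Ebp, Sc5d and Dhcr7 (CPM, axes from 0) in each library by stage, blue for WT and orange for KO; black marks are the mean ± SD of 4 libraries. Dhcr7 is lower in every KO library, Sc5d higher in every KO library of the 3 embryonic stages, and Ebp overlaps between genotypes at all 4 stages.

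Sc5d, the desaturase that makes the substrate of DHCR7, was higher in every KO than in every WT library at the 3 embryonic stages and overlapped at birth. At E12.5 the WT libraries measured 64.4, 73.7, 77.1 and 71.7 CPM and the KO libraries 86.9, 100.3, 99.1 and 97.4 CPM. The lowest KO library of E12.5 stood above the highest WT library, a separation seen in either direction in 2.53% of the genes tested. The log2 fold change was 0.40 (SE 0.0829), with an adjusted p of 0.723. Its unadjusted p, 0.000799, ranked 18 of the 16948 genes tested, of which 3 passed the threshold at that stage. DESeq2 gave an adjusted p of 0.0162 and the fit of all 32 libraries 0.0490 for the same comparison.

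At E14.5 Sc5d rose. It measured 69.3, 73.8, 69.9 and 67.3 CPM in WT and 84.5, 84.9, 79.3 and 81.8 CPM in KO. All 4 KO libraries lay above the WT libraries, the highest of which was replicate 2. Of the genes tested at E14.5, 4.77% had groups that did not overlap, in either direction, and 0.527% passed the threshold. For Sc5d the log2 fold change was 0.24 (SE 0.0453, adjusted p 0.00172), a level 1.18 times that of WT with a 95% interval of 1.11 to 1.26. It passed without each library in turn, with an adjusted p of 0.000216 to 0.0306, but not in the fit of all 32 libraries, where the adjusted p was 1.0 with the same log2 fold change of 0.24.

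At E16.5 the WT libraries measured 86.2, 97.5, 87.5 and 86.0 CPM of Sc5d and the KO libraries 102, 103.7, 106.3 and 107.7 CPM. Again no KO library fell among the WT libraries, as for 6.39% of the genes tested in either direction. The log2 fold change was 0.22 (SE 0.0546) and the adjusted p 0.240. It was 0.0480 with no filter on low counts and 0.0208 with DESeq2. At PND0 the WT libraries measured 96.0, 96.0, 85.7 and 71.5 CPM and the KO libraries 106.5, 84.5, 71.4 and 116.2 CPM. Here the KO libraries spread on both sides of the WT libraries. The log2 fold change was 0.11 (SE 0.138, adjusted p 0.737), and the interval of the ratio, 0.894 to 1.30, held the ratios of the 3 earlier stages except that of E12.5, 1.32.

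Averaged over the 4 stages, Sc5d in KO was at 1.19 times its WT level (log2 fold change 0.25, SE 0.0488, adjusted p 0.00670), with an interval of 1.11 to 1.27. Of all 19541 genes in that fit, 0.558% passed, and 78 were higher. The average held without each of the 32 libraries in turn, with adjusted p from 0.000164 to 0.0152, and in the 6 other settings tried. The test of a difference between stages gave an adjusted p of 0.534 for Sc5d. So the smaller value at birth was not shown to differ from those before it.

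Ebp, the isomerase upstream of Sc5d, was the least abundant of the 3, with 110 to 339 counts in a library. Its KO and WT libraries overlapped at every stage. At E12.5 it measured 10.5, 10.2, 10.1 and 12.3 CPM in WT and 16.7, 11.4, 10.7 and 10.9 CPM in KO. A single KO library, replicate 1, lay above the WT range. The log2 fold change of 0.18 (SE 0.168, adjusted p 0.901) became -0.01 without that library, the one with 5.64% ribosomal RNA counts.

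At E14.5 the Ebp libraries measured 9.55, 9.71, 9.41 and 9.92 CPM in WT and 9.48, 10.6, 10.6 and 11.8 CPM in KO. Of the KO libraries, 3 were above all WT libraries and the other lay among them. This came to a log2 fold change of 0.14 (SE 0.107, adjusted p 0.775). The E16.5 libraries measured 12.9, 12.4, 10.6 and 10.8 CPM in WT and 11.97, 12.03, 10.2 and 10.8 CPM in KO. Both groups covered nearly the same range, with a log2 fold change of -0.07 (SE 0.109, adjusted p 0.849). Those of PND0 measured 9.73, 10.6, 8.55 and 5.48 CPM in WT and 12.7, 10.2, 8.54 and 13.2 CPM in KO.

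That PND0 difference, a log2 fold change of 0.37 (SE 0.206, adjusted p 0.362), was the largest of Ebp and rested in part on 1 low WT library: without WT replicate 4 it was 0.21. The average over the stages was 0.16 (SE 0.0791), with an unadjusted p of 0.0462 and an adjusted p of 0.392. The interval of this average ratio ran from 1.01 to 1.25, so it held the 1.19 seen for Sc5d. The by-stage test of Ebp gave an adjusted p of 0.662. Ebp is X-linked. The pattern of Xist and Y-linked genes split the libraries of E12.5 into 3 with Xist and 1 with Y genes in WT and 2 and 2 in KO. With a covariate for this pattern the KO differences of Ebp stood at 0.22, 0.14, -0.07 and 0.36 on the log2 scale.

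The other enzymes of cholesterol synthesis place these values. Of 18 further pathway genes, 18 of 18 had a log2 fold change above 0 at each of the 4 stages, where 7.1% of the 15750 genes tested at every stage did. Past the threshold and higher in edgeR were 0, 13, 3 and 4 of the 18 in stage order, and 16 in the average over stages. None was past it and lower. Of all genes tested, 0.0177%, 0.527%, 0.0462% and 1.44% passed in stage order and 0.558% in the average, in either direction. With shares this unlike, the counts of the 18 do not compare the stages. Their median log2 fold change was 0.50, 0.35, 0.26 and 0.36 in stage order and 0.37 in the average, while that of all genes tested lay within 0.01 of 0 in each. At E12.5, 16 of the 18 had an unadjusted p under 0.05, and DESeq2 called 11. The share of all genes with such a p, or called by DESeq2, is not given here.

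Among these 18 and the pair of Ebp and Sc5d, ordered from the largest rise to the smallest, Sc5d stood at place 15, 15, 14 and 18 of 20 in stage order and at 17 in the average. Ebp stood at place 19, 18, 20 and 9, and at 19 in the average. Below Ebp in the average was only Lbr, a sterol reductase that is also a receptor for lamin B in the nuclear membrane, with a log2 fold change of 0.08 (SE 0.0480, adjusted p 0.541). Pmvk, phosphomevalonate kinase, at 0.23 (SE 0.0645, adjusted p 0.0984), was the other gene of the list that did not pass in the average.

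The genes of the list with the smallest p showed larger differences than Sc5d at the same stage. At E14.5 these were Hmgcs1, the HMG-CoA synthase, at 0.48 (SE 0.0318), Fdft1, the squalene synthase, at 0.43 (SE 0.0357), and Msmo1, a C4-methylsterol oxidase, at 0.51 (SE 0.0440), and all 3 passed. The same 3 had the smallest p at E12.5, with 0.78, 0.57 and 0.75 and adjusted p of 0.264, 0.527 and 0.395. At E16.5 they included Sqle, the squalene epoxidase, at 0.34, and Mvd, the mevalonate diphosphate decarboxylase, at 0.51, each with an adjusted p of 0.0340. At PND0 they were Mvd at 0.79 (adjusted p 0.0111), Tm7sf2, a sterol reductase, at 0.51 (adjusted p 0.0270), and Nsdhl, a sterol dehydrogenase, at 0.57 (adjusted p 0.0327).

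Counts of calls in this list moved with the setting, and so did those over all genes. At E14.5, 94 genes passed in all, and 4 in the fit of all 32 libraries. At E16.5 the total was 8, with 3 in that fit and 233 with no filter on low counts. Totals for each other fit named here are not given. The fit of all 32 libraries called 0 of 18 at E14.5, and the fits that leave out 1 library called 12 to 13. For E16.5 the count was 0 without WT replicate 3 or 4 or KO replicate 1, 2 or 3. It was 1 without KO replicate 4 and 2 without WT replicate 1. With the sex-gene covariate and in the fit of all 32 libraries it was 0, with DESeq2 7 and with no filter on low counts 9. For PND0 it was 0 without KO replicate 1, 1 without WT replicate 1 or 3 or KO replicate 2, 2 without KO replicate 4, and 11 with no filter. In the average it stayed between 15 and 17 over every setting and library left out.

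**Figure D2:**
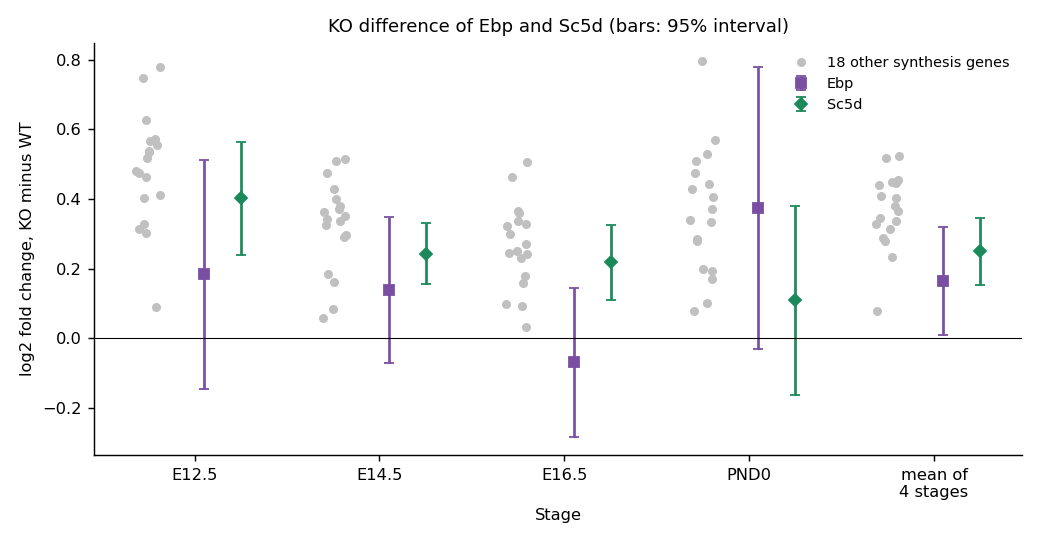
Log2 fold change, KO minus WT, by stage and in the average over the 4 stages: gray points are the 18 other cholesterol synthesis genes, purple squares Ebp and green diamonds Sc5d with bars of ± 1.96 SE. All gray points lie above 0; Sc5d lies in the lower part of their range and Ebp near its lower end except at PND0.

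SC5D is known to draw electrons from cytochrome b5, and cytochrome P450 reductase supports DHCR7. A list of 8 such donors and of related proteins (Por, Cyb5a, Cyb5b, Cyb5r3, Cyb5r1, Pgrmc1, Pgrmc2 and the EBP-like gene Ebpl) had 0 of 8 genes past the threshold in edgeR at each of the 4 stages. Those with an unadjusted p under 0.05 numbered 0, 1, 2 and 3 in stage order. The share of all genes with such a p is not given here, so these counts cannot be compared between stages. At PND0 an unadjusted p of 0.0896 in edgeR, that of Ebp, ranked 4312 of the 17420 genes tested. DESeq2 called none of the 8 at any stage, though at E16.5 it gave an adjusted p for only 4 of them. In the average over stages none passed in edgeR either, 2 had an unadjusted p under 0.05, and DESeq2 called 1, Por. In edgeR Por was called in 6 of the 32 fits that leave out a library: those without E12.5 WT replicate 4, E12.5 KO replicate 1 or 4, E16.5 KO replicate 4, PND0 WT replicate 2 or PND0 KO replicate 3. Por, the P450 reductase, had an average log2 fold change of 0.15 (SE 0.0366, adjusted p 0.0638) in edgeR. Ebpl, a relative of Ebp, was at -0.04 (SE 0.0494, adjusted p 0.797).

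In WT brains the 3 genes did not rank the stages alike, as the panels of level by library show. Dhcr7 ranked E16.5, E12.5, E14.5 and PND0 from low to high, with 62.5 ± 3.11, 67.3 ± 3.91, 70.0 ± 0.799 and 89.2 ± 19.6 CPM (SD, n = 4 each). Sc5d ranked E14.5, E12.5, PND0 and E16.5, with 70.1 ± 2.71, 71.7 ± 5.38, 87.3 ± 11.6 and 89.3 ± 5.51 CPM. Ebp ranked PND0, E14.5, E12.5 and E16.5, with 8.58 ± 2.24, 9.65 ± 0.215, 10.8 ± 1.05 and 11.7 ± 1.16 CPM. Neighbours in these orders overlapped between their libraries, except E14.5 and E12.5 for Ebp. A stage and the batch in which its libraries were made cannot be told apart here.

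From E12.5 to E14.5 none of the 3 passed the threshold, while 57.8% of all genes did. Ebp was lower in all 4 libraries of E14.5 than in any of E12.5, a separation that 53.6% of all genes showed in either direction. The log2 fold changes were -0.19 (adjusted p 0.121) for Ebp, -0.06 (adjusted p 0.421) for Sc5d and 0.03 (adjusted p 0.647) for Dhcr7. From E14.5 to E16.5, a step that 57.5% of all genes passed, Sc5d rose by 0.37 (SE 0.0542, adjusted p 2.37e-05) and Ebp by 0.29 (SE 0.106, adjusted p 0.0254), and Dhcr7 fell by 0.14 (SE 0.0533, adjusted p 0.0309). In each of the 3 the libraries of both stages were apart, as in 53.1% of all genes. The calls of Ebp and of Dhcr7 at this step were each lost in 4 of the 8 fits that leave out a library, and that of Sc5d in none.

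From E16.5 to PND0, where 53.2% of all genes passed, Dhcr7 rose by 0.48 (SE 0.137, adjusted p 0.0101) and Ebp fell by 0.48 (SE 0.181, adjusted p 0.0377), with Sc5d at -0.06 (SE 0.0907, adjusted p 0.586). The rise of Dhcr7 was seen in 3 of the 4 PND0 libraries, and WT replicate 4, at 60.0 CPM, lay within the range of E16.5. Without that library the Dhcr7 rise was 0.63 and the Ebp value -0.31, with an adjusted p of 0.0833 for Ebp, and Sc5d turned to 0.02. The call of Ebp at this step held in only 3 of the 8 fits that leave out a library, and that of Dhcr7 in all 8. With transcript-length offsets the call of Ebp was lost as well (-0.32). Across the whole course, from E12.5 to PND0, Dhcr7 rose by 0.44 (SE 0.145, adjusted p 0.0194) and Sc5d by 0.31 (SE 0.101, adjusted p 0.0171), against 70.9% of all genes past the threshold. The call of Sc5d was lost without PND0 WT replicate 1 or 2, and with transcript-length offsets, where the log2 fold change was 0.12. That of Dhcr7 was lost without PND0 WT replicate 1, 2 or 3, and with no filter on low counts (0.37). Ebp was at -0.30 (SE 0.193, adjusted p 0.183).

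Per kilobase of the longest coding transcript (1743, 4787 and 2815 nucleotides for Ebp, Sc5d and Dhcr7 in GENCODE M21), Ebp was lowest in WT at every stage. Its means were 4.93 to 6.69 CPM per kilobase, against 14.6 to 18.7 for Sc5d and 22.2 to 31.7 for Dhcr7. The lead of Dhcr7 over Sc5d depended on the length used. Over all exons merged (2310, 4866 and 5817 nucleotides) Sc5d stood at 14.4 to 18.4 CPM per kilobase and Dhcr7 at 10.7 to 15.3, while Ebp stayed lowest at 3.72 to 5.05.

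Within a library, the ratio of Sc5d to Dhcr7 counts needs no scaling between libraries. In WT it was 1.07 ± 0.102, 1.0 ± 0.0322, 1.43 ± 0.0911 and 1.0 ± 0.146 in stage order (SD, n = 4 each). The E16.5 libraries, at 1.31 to 1.53, lay above those of every other stage, whose highest was 1.21. This is a description with no test, and the share of gene pairs whose ratios separate in this way is not given. Of single genes, 53.1% separated between E14.5 and E16.5 in WT, in either direction. In KO the ratio was 4.50 ± 0.777, 6.30 ± 0.474, 6.15 ± 0.328 and 6.62 ± 1.42 in stage order, with the fall of the Dhcr7 count itself in the denominator.

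The ratio of Sc5d to Ebp counts leaves the targeted gene out. In stage order it was 6.71 ± 0.875, 7.27 ± 0.350, 7.70 ± 0.700 and 10.5 ± 1.76 in WT, and 8.07 ± 1.93, 7.85 ± 0.830, 9.39 ± 0.972 and 8.46 ± 0.248 in KO. The genotypes overlapped at E12.5 and E14.5. At E16.5 the KO libraries (8.52 to 10.5) lay above the WT libraries (6.68 to 8.27), and at PND0 they lay below (8.26 to 8.82 against 9.07 to 13.1). The highest WT ratio of PND0 came from replicate 4, where Ebp was at 5.48 CPM. These ratios are given as a description, with no test, and the share of gene pairs whose ratios separate in this way is not given. Neither Sc5d nor Ebp passed the threshold between KO and WT at E16.5 or PND0 in edgeR.

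**Figure D3:**
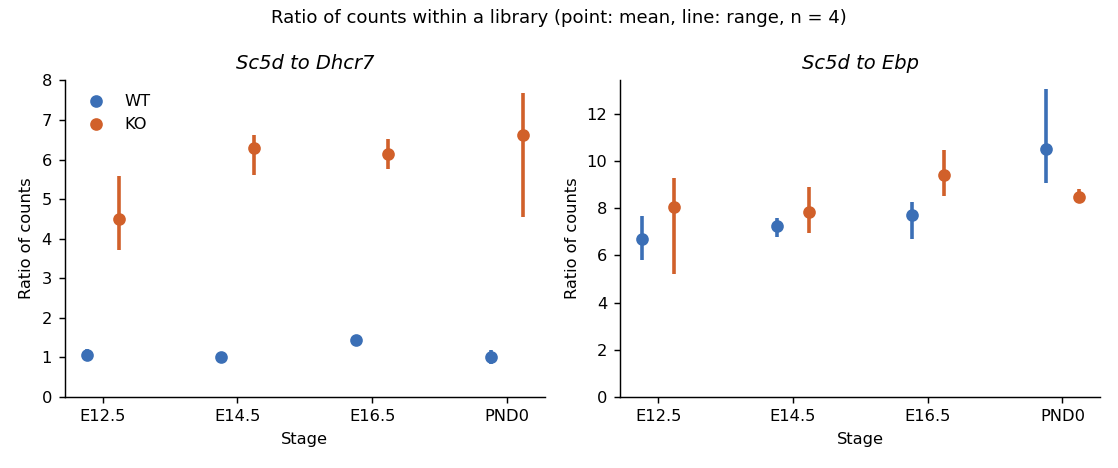
Ratio of Sc5d to Dhcr7 counts (left) and of Sc5d to Ebp counts (right) within a library, by stage, blue for WT and orange for KO; points are means and lines the range of 4 libraries. The left ratio is near 1.0 in WT apart from 1.43 at E16.5 and between 4.50 and 6.62 in KO. The right ratio is higher in KO at E16.5 and lower at PND0, given with no test.

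At PND0 1 WT library stood apart for most of the pathway. In replicate 4 the 3 genes were at their lowest of the 4 WT libraries, by 0.60 for Ebp, 0.28 for Sc5d and 0.54 for Dhcr7 below the PND0 WT mean of log2 CPM. Of the 18 other pathway genes, 15 were lowest in that library, and Pmvk (-0.14), Lbr (-0.01) and Fdps (0.13) were not. The 18 had a median deviation of -0.43 and summed to 1763 CPM there, against 2592 to 2810 in the other WT libraries. The share of all genes that were lowest in that library is not given here. In the 4 KO libraries the median deviation of the 18 was between 0.33 and 0.47. Sc5d did not keep to that level there, at 0.30, -0.04, -0.28 and 0.42 in replicates 1 to 4, while Ebp was at 0.60, 0.29, 0.03 and 0.65. The total counts of WT replicate 4, 20.57 M, were the highest of its group. Without this library the KO difference at PND0 was 0.03 for Sc5d, 0.21 for Ebp and -2.77 for Dhcr7.

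**Figure D4:**
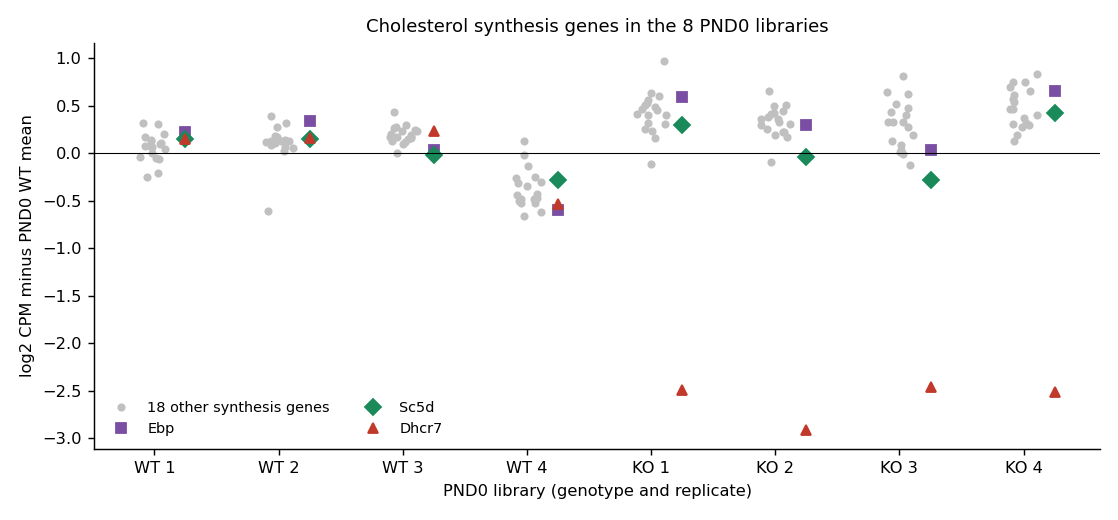
Log2 CPM minus the mean of the 4 PND0 WT libraries, for each of the 8 PND0 libraries: gray points are the 18 other cholesterol synthesis genes, and colored marks Ebp, Sc5d and Dhcr7. WT replicate 4 lies low for most genes and all 3 colored marks; in the KO libraries Dhcr7 lies below -2.46 and Sc5d between -0.28 and 0.42.

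Within a stage in WT, the variation that Sc5d shared with Ebp and with Dhcr7 rested largely on PND0 WT replicate 4. That of Ebp with Dhcr7 rested on it only in part. After each stage's mean was removed, Pearson's r over the 16 WT libraries was 0.90 between Ebp and Dhcr7, 0.73 between Ebp and Sc5d and 0.71 between Sc5d and Dhcr7. Without PND0 WT replicate 4 these were 0.51, 0.27 and 0.03 over 15 libraries. In the same order they were 0.81, 0.06 and 0.19 over the 12 embryonic WT libraries and -0.43, 0.38 and 0.32 over the 16 KO libraries. These values describe libraries that share their depth and composition across genes.

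Among the 12523 genes that averaged 5 CPM or more in WT, the 4 whose log2 CPM over the 16 WT libraries was most like that of Dhcr7 were Sqle (r = 0.97), Clpb (0.92), Nsdhl (0.91) and Elovl6 (0.90). Sqle and Nsdhl belong to the pathway, Elovl6 elongates fatty acids and Clpb encodes a mitochondrial disaggregase. Over the 16 KO libraries the r of Dhcr7 with Sqle was -0.04 and with Nsdhl -0.05. For Sc5d the nearest were Atp8a1, a phospholipid flippase, at 0.93, Ccdc39 at 0.92, Plcxd2 at 0.92 and Atp2c1, a Golgi calcium pump, at 0.92, with 0.51, 0.25, 0.57 and 0.48 in KO. For Ebp they were Nabp1 at 0.88, Creld2, an endoplasmic reticulum chaperone, at 0.88, 1500015A07Rik at 0.86 and Ppt2 at 0.85, with 0.72, 0.43, 0.54 and 0.29 in KO. The nearest genes of Sc5d and Dhcr7 stayed at 0.91 or more without PND0 WT replicate 4, while those of Ebp fell to between 0.53 and 0.80.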

How the data were processed

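The members and gene lists were chosen with earlier results of these data known. The authors deposited 4 tables, 1 per stage, of raw counts per gene symbol, not normalized; per the submitters' processing notes HISAT2, SAMtools, featureCounts and DESeq2 were used with the mm10 build. Their versions, the annotation and the strand setting are not given in the sources used here. No annotated gene overlaps Ebp, Sc5d or Dhcr7 on either strand. Per the labels' protocols RNA was enriched for polyadenylated transcripts.

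Each comparison was fitted across all genes on its own 8 libraries with the quasi-likelihood F test of edgeR 4.0.16 (R 4.3.3), after TMM scaling and filterByExpr with a minimum count of 10 and a minimum total of 15. P-values were adjusted by Benjamini-Hochberg over all genes tested, and the threshold was 0.05. The average over stages and the test by stage used all 32 libraries. A log2 fold change compares KO with WT, or a later with an earlier stage; intervals are ± 1.96 SE, about 95%. CPM used TMM over the 32 libraries, except for the cell type markers, where total counts were used, and log2 CPM a prior count of 2. Lengths and positions came from GENCODE M21 (GRCm38) and promoters from RefSeq (GRCm38.p6). Counting error sets the limit for low counts. Scripts were tested on simulated data. Libraries of 1 group were not copies of each other: over 48 pairs the chi-square per degree of freedom was at least 2.90. Pairs with E12.5 KO replicate 1 gave the highest values, 110.8 to 114.7, against 5.57 to 13.8 among the other KO libraries of E12.5. Named genes were the 3 members, the 3 pathway genes with the smallest p in each KO comparison and the 4 genes most like each member; 1 gene that this rule names is not reported here, and others named stand at an end of a list and were chosen after their values were seen. Alternatives changed 1 choice each: RLE scaling, no filter for low counts, DESeq2 1.42.0, 1 fit of all 32 libraries, a replicate block, a sex-gene covariate (Y genes against Xist), transcript-length offsets, and leaving out each library.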

Additional observations from a re-analysis of the deposited data

Results flagged for a closer look

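In 4 of 24 groups of 4 libraries (3 genes by 8 groups) 1 library lay far from the other 3, by Dixon's test at the 95% level, where chance gives about 1 group in 20. Ebp was high in E12.5 KO replicate 1, at 16.7 CPM, against 10.7 to 11.4 CPM in the other KO libraries; this library also had 5.64% of its counts on a ribosomal RNA gene. Sc5d was high in E16.5 WT replicate 2, at 97.5 CPM, against 86.0 to 87.5 CPM. Dhcr7 was low in PND0 WT replicate 4, at 60.0 CPM, against 96.9 to 102.4 CPM, together with 15 of 18 other cholesterol synthesis genes. Dhcr7 was low in PND0 KO replicate 2, at 11.5 CPM, against 15.1 to 15.7 CPM.

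The KO effect on Dhcr7 passed the test of a difference between the stages, with an adjusted p of 0.0349. It did not pass in 17 of the 32 fits that leave out 1 library, where the p reached 0.149.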

How the results depend on the processing

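Across 30 results (3 genes by 10 comparisons) and 585 alternatives, 528 kept their direction and side of the threshold, 48 fell below it, 6 passed it and 3 reversed; the causes were not tested. Sc5d passed in the E12.5 KO comparison in DESeq2 (0.40) and in the fit of all 32 libraries (0.43), did not pass at E14.5 in that fit (0.24), and passed at E16.5 without the filter (0.22) and in DESeq2 (0.22). In WT at E14.5 against E12.5, Sc5d was at 0.024 with the sex-gene covariate and passed at -0.17 with length offsets. For E16.5 against E14.5, Ebp did not pass without the filter (0.27), with length offsets (0.21) or with all 32 libraries (0.29), nor did Dhcr7 with the sex-gene covariate (-0.13), length offsets (-0.12) or all 32 libraries (-0.15). With length offsets, Ebp (-0.32) no longer passed and Sc5d (-0.22) passed for PND0 against E16.5, and Sc5d (0.12) no longer passed for PND0 against E12.5; Dhcr7 did not pass there without the filter (0.37).

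Leaving out 1 library changed the side or sign of 9 of the 30 results. Ebp in the E12.5 KO comparison ran from -0.0090 (without KO replicate 1) to 0.25, and Dhcr7 there from -1.74 to -1.52. For E16.5 against E14.5, Ebp ran from 0.23 to 0.34 and lost its call without E14.5 replicate 1 or 3 or E16.5 replicate 1 or 2. Dhcr7 ran from -0.18 to -0.12 and lost it without replicate 2 or 4 of E14.5 or 3 or 4 of E16.5. For PND0 against E16.5, Ebp ran from -0.59 to -0.31 and lost its call without E16.5 replicate 1, 2 or 4 or PND0 replicate 3 or 4, and Sc5d ran from -0.11 to 0.022 (without PND0 replicate 4). For PND0 against E12.5, Sc5d ran from 0.26 to 0.40 and lost its call without PND0 replicate 1 or 2, and Dhcr7 from 0.37 to 0.59 and lost it without PND0 replicate 1, 2 or 3. The by-stage p of Dhcr7 ran from 0.000147 to 0.149 and did not pass without E12.5 WT 2 or 4 or KO 2 or 3, E14.5 WT 4 or KO 1, 2 or 3, E16.5 WT 3 or 4 or KO 1, 2 or 3, or PND0 WT 1 or 3 or KO 1 or 4.

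Replicate numbers are shared between genotypes but did not pair the libraries: the deviations of same-numbered libraries correlated between -0.276 and 0.303 over the stages. With the replicate block the by-stage p of Dhcr7 was 0.0602, and genes past the threshold numbered 6 against 3 at E12.5, 5 against 8 at E16.5 and 0 against 5 by stage. In all, genes past the threshold moved from 94 at E14.5 to between 4 (all 32 libraries) and 155 (1 library left out), from 8 at E16.5 to between 3 and 233 (no filter), from 250 at PND0 to between 35 (1 library left out) and 1205 (all 32 libraries), from 109 in the average to between 63 and 356 (DESeq2), and from 5 by stage to between 0 and 797 (1 library left out); at E12.5 the fit of all 32 libraries gave 52. DESeq2 gave no adjusted p for Ebp at E14.5 and E16.5 and for Dhcr7 at E16.5. Ebp had 110 to 339 counts per library, which limits what its comparisons can detect.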
